A study of Mus musculus with 48 samples.

Results

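The transcripts of 10 genes of the endoplasmic reticulum (ER) stress response and the integrated stress response were followed through the first week after a permanent stroke in the mouse. They were chosen by name, as widely used markers of these responses, with earlier results of these data known. They came from the 46983 genes in the count tables, and all 10 were among the 19970 genes tested. The set held the regulators *Atf4*, *Ddit3*, *Atf5* and *Xbp1*, the targets *Chac1*, *Trib3*, *Asns* and *Sesn2*, and the ER genes *Hspa5* and *Herpud1*. Bulk brain RNA came from 3-month-old male C57Black/6 mice at 3 h, 12 h, 24 h, day 3 and day 7 after middle cerebral artery occlusion (MCAO), in which the artery was coagulated and cut, and after a sham operation that left the artery open. Intact control tissue was the eleventh group. Each group held 4 libraries, except for the MCAO groups at 3 h, 12 h, day 3 and day 7, which held 5. The labels describe the tissue as injured cortex together with unaffected brain, and the occlusion leaves only a small parietal infarct. Elsewhere the study states that its bulk samples took almost the whole hemisphere on the side of the lesion. The study counts its bulk replicates in mice, but no label ties a library to a given animal, and p-values measure the spread between libraries. In such tissue a smaller number of cells and less RNA per cell cannot be told apart.

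When unfolded protein accumulates in the ER, the sensors PERK, IRE1 and ATF6 are activated. PERK phosphorylates the translation factor eIF2, which slows protein synthesis in general but favours the translation of ATF4, and other eIF2 kinases reach the same point from amino acid shortage, heme deficiency or double-stranded RNA. ATF4 and its partner CHOP then switch on genes for amino acid supply, redox control and cell death, while ATF6 and the spliced form of XBP1 raise chaperones and the machinery that removes misfolded protein. Ischemia is a classic trigger of this pathway, since it deprives neurons of energy and of ER calcium. Levels of messenger RNA were measured here, so neither the translation of *Atf4* nor the splicing of *Xbp1* was seen.

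Promoter stretches are shown for *Hspa5* and *Herpud1*, which hold motifs named for ER stress, and for *Chac1* and *Asns*, which hold the core of an ATF4 site. RefSeq promoter windows on GRCm38.p6, from 250 bases before to 50 bases after each start, were found for all 10 genes. The ER stress element (CCAAT, any 9 bases, then CCACG) was searched on both strands and lay in 0.119% of all 32851 windows, among the members only in that of *Hspa5*, 65 bases before the RefSeq start. ER stress element II (ATTGG, any 1 base, then CCACG) lay in 0.0365% of windows, among the members only in that of *Herpud1*, 52 bases before the RefSeq start. RefSeq and Gencode starts differ, so that the stretches of *Hspa5* and *Asns* lie within the Gencode gene coordinates given for them. The *Herpud1* window also held TGATGNAA, the core of a site bound by dimers of ATF4 and C/EBP proteins, in capitals on the reverse strand. This core was in 3.97% of all windows and in 4 members (*Asns*, *Chac1*, *Herpud1* and *Trib3*). The longer site TGATGNAAT, which contains the core, was in 0.965% of windows, and the unfolded protein response element TGACGTGG in 0.676%, both without a member. The stretches follow 5′ to 3′ on the strand of the gene, with motifs in capitals, at chr2:34772019-34772048 (+) for *Hspa5*, chr8:94386279-94386428 (+) for *Herpud1*, chr2:119351038-119351067 (+) for *Chac1* and chr6:7693214-7693243 (-) for *Asns*.
Hspa5: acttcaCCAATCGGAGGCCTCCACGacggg
Herpud1: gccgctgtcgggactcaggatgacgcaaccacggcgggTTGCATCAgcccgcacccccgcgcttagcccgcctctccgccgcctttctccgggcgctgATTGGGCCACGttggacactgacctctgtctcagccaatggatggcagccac
Chac1: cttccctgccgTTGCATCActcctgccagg
Asns: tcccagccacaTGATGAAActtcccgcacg

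Each library held between 1522668 and 2826735 counts on genes, and spike-in RNA took 3.71% to 5.97% of the reads on genes and spike-ins together. All 8 neuronal markers were detected in every group, with summed levels of 6442 to 13820 CPM per library (CPM, counts of a gene per 1000000 counts on genes). Their median sum was 8069 CPM after MCAO against 11860 CPM in sham at day 3, and 9875 against 12190 CPM at day 7, where the groups did not overlap, and 1 marker was called lower at each time. At 24 h the neuronal median was 10380 against 13640 CPM, with overlapping groups and 0 markers called. Blood genes summed to 34.6 to 1416 CPM per MCAO library and to 9.80 to 150.4 CPM per sham library. Granulocyte markers summed to at most 8.07 CPM in sham libraries but to 1706 CPM in MCAO library E at 12 h and 616.8 CPM in MCAO library C at day 3. The markers of microglia and macrophages summed to 620 to 2363 CPM after MCAO at day 3, against 280 to 372 CPM in sham, and 6 of the 8 were called higher. At 24 h these markers were already apart, at 513 to 672 against 337 to 424 CPM, with 0 called. Fibroblast markers were apart at 24 h too, at 104 to 202 against 48.8 to 83.9 CPM, with 0 called. Fibroblast markers summed to 72.8 to 1305 CPM after MCAO against 60.9 to 121.5 CPM in sham at day 3 (3 of 5 called higher), and to 153.5 to 5454 against 40.1 to 77.4 CPM at day 7 (4 of 5). Striatal markers varied widely between libraries, from 225 to 2871 CPM after MCAO and from 255 to 872 CPM in sham at 24 h, with 0 called. The part that these cells and the striatal tissue have in the values of the members was not tested.

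At single times no member passed the call, although MCAO and sham libraries were wholly apart for some of them. A gene was called when its adjusted p was under 0.01 and its log2 fold change above 0.58 in size (edgeR's quasi-likelihood test). The 19 comparisons of single times made 190 tests of members, of which 0 were called and 38 had an unadjusted p under 0.05. DESeq2 also called 0. Of these 38, 18 came from the 50 tests of MCAO against sham, 15 from MCAO against control, 2 from sham against control and 3 from the differences between successive times. At an unadjusted p under 0.05, all genes tested gave 8.45% at 3 h, 14.6% at 12 h, 8.80% at 24 h, 21.6% at day 3 and 23.5% at day 7 in MCAO against sham, and the members gave 3, 5, 6, 3 and 1 of 10. Of all genes, 0.11% were called at 3 h, 0.411% at 12 h, 0.0901% at 24 h, 4.02% at day 3 and 3.5% at day 7 against sham. Against control the shares were 0.13%, 0.856%, 0.28%, 3.1% and 1.5% in the same order. Sham differed from control in 0.0%, 0.0351%, 0.01%, 0.0% and 0.0% of genes, and the effect of MCAO differed between successive times in 0.01%, 0.01%, 0.01% and 0.0%. With so few calls among all genes within the first day, 0 of 10 is close to the background there.

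The direction was nonetheless shared early on. The fitted log2 fold change of MCAO against sham was positive for 10 of 10 members at 3 h, 9 of 10 at 12 h and 10 of 10 at 24 h, then for 7 at day 3 and 4 at day 7. The median of the members was 0.46 at 3 h, 0.67 at 12 h, 0.60 at 24 h, 0.18 at day 3 and -0.11 at day 7, while the median of all genes stayed between 0.00 and 0.06. The members are a small chosen group that shares libraries and regulators, so these medians describe them and carry no test. Averages over the first 3 times and over the last 2 times were therefore fitted in the same model, a comparison added after the values had been seen. In the early average 1 member, *Atf4*, was called higher, against 1.49% of all genes. In the late average 0 were called (6.94% of all genes), with 2 at an unadjusted p under 0.05 (26.8% of all genes) and 0 by DESeq2. Early and late effects differed for *Atf4* and *Asns* (1.27% of all genes called).

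**Figure D1:**
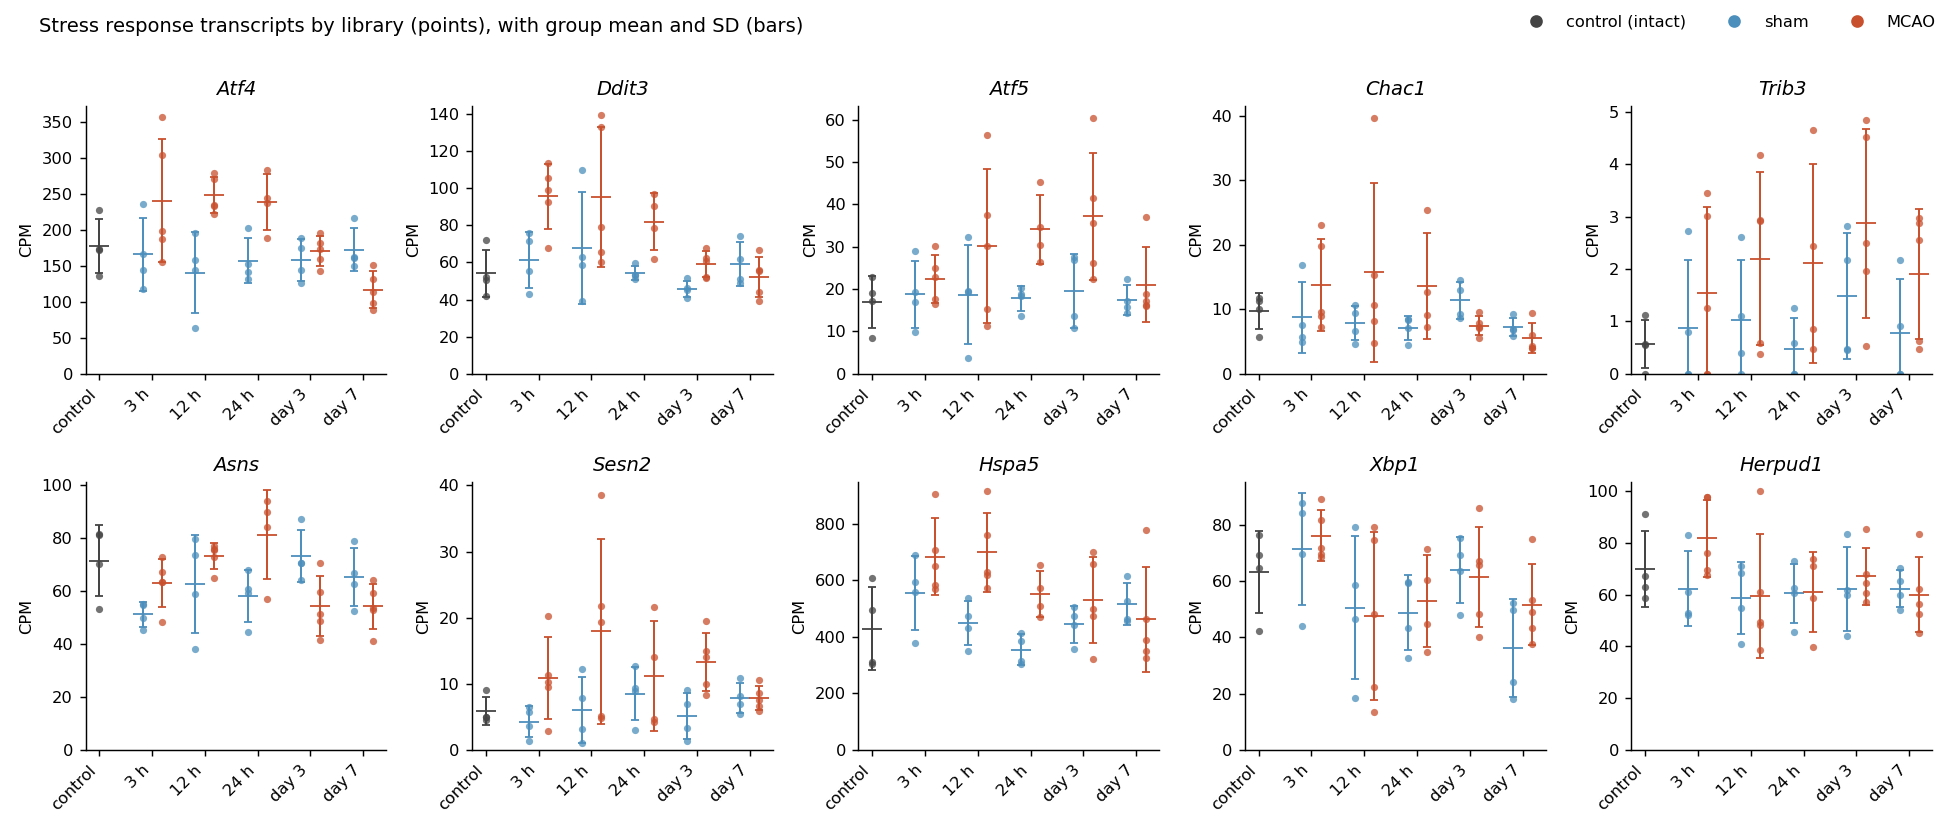
Level of each transcript (CPM, linear axis from 0) in every library, by time, for intact control, sham and MCAO mice. Points are libraries, the wide dash is the group mean and the bar its SD. The MCAO libraries of *Hspa5* at 12 h and 24 h, *Atf4* at 12 h, *Ddit3* at 24 h and day 3, and *Atf5* at 24 h all lie above sham. *Chac1*, *Trib3*, *Asns*, *Sesn2*, *Xbp1* and *Herpud1* overlap throughout. Of all genes, 2.03% lie wholly above sham at 12 h, 3.73% at 24 h and 4.33% at day 3.

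*Atf4* (ENSMUSG00000042406.7, chr15:80255184-80257541, + strand, GRCm38) encodes the transcription factor at the centre of the integrated stress response. Over 3 h to 24 h, the 14 MCAO libraries ran from 155 to 357 CPM with a median of 236, and the 12 sham libraries from 63.6 to 235.5 CPM with a median of 148. All 14 were above the sham median, and 7 were above every sham library. At 12 h the MCAO libraries held 222, 235, 271, 279 and 233 CPM and the sham libraries 195.5, 158.5, 63.6 and 145 CPM.

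MCAO and sham at 12 h did not overlap, a property that 2.03% of all genes shared in the same direction. Against sham, its log2 fold change was 0.54 ± 0.22 (SE) at 3 h, 0.82 ± 0.22 at 12 h and 0.60 ± 0.23 at 24 h, with adjusted p-values (edgeR) of 0.477, 0.0449 and 0.382. Averaged over these times it was 0.65 (95% interval 0.39 to 0.92, edgeR adjusted p = 0.000957), a rise over sham. It stayed called without 25 of the 26 libraries left out in turn, and without sham library C at 12 h, the lowest of all at 63.6 CPM, it was 0.57 with an adjusted p of 0.0019, just under the fold limit. Against control, MCAO had smaller values of 0.44 ± 0.22 at 3 h, 0.48 ± 0.22 at 12 h and 0.43 ± 0.23 at 24 h. None of these was called (edgeR adjusted p = 0.55, 0.269 and 0.506). Sham stood at -0.09, -0.34 and -0.18 against control at the same times, also not called.

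By day 7 the order was the other way round. MCAO libraries then held 88.3, 113, 132, 98.8 and 152 CPM and sham libraries 161, 161.5, 150 and 217 CPM, so that only MCAO library E reached into the sham range. The log2 fold change was -0.56 ± 0.22 (adjusted p = 0.1, edgeR) against sham and -0.60 ± 0.22 against control (adjusted p = 0.135, edgeR), neither of them called. The early effect exceeded the late one by 0.88 (95% interval 0.48 to 1.29, edgeR adjusted p = 0.00676). That call was lost, at adjusted p-values of 0.0101 to 0.0165 and differences of 0.82 to 0.90, without any one of 16 of the 44 libraries. These were MCAO C and D and sham B and C at 3 h, MCAO A and C and sham C and D at 24 h, MCAO C and D and sham A and B at day 3, and MCAO A and D and sham B and D at day 7.

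*Ddit3* (ENSMUSG00000025408.15, chr10:127290774-127296288, + strand) encodes CHOP, the factor that ties prolonged ER stress to cell death. It overlaps *Mars* and *Gm4189* on the other strand, and the strand setting of the counting is not given in the sources used here. Early MCAO libraries ran from 60.1 to 139 CPM with a median of 91.4, and early sham libraries from 39.2 to 110.0 CPM with a median of 57.0. As for *Atf4*, all 14 were above the sham median.

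At 3 h the 5 MCAO libraries held 114, 67.6, 105, 99.1 and 92.5 CPM against 75.9, 55.3, 43.0 and 71.4 CPM in sham, and only MCAO library B fell within the sham range. At 24 h all 4 MCAO libraries (62.0, 78.5, 90.2 and 97.2 CPM) exceeded all 4 sham libraries (59.98, 53.1, 53.0 and 50.9 CPM). Of all genes 3.73% showed that separation at 24 h, and 2.27% at 3 h, where it held for 0 members. *Ddit3* separated once more at day 3, when MCAO libraries held 51.8 to 67.9 CPM and sham libraries 40.6 to 51.5 CPM, as 4.33% of genes did.

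The log2 fold change of *Ddit3* against sham was 0.64 ± 0.22 at 3 h, 0.50 ± 0.22 at 12 h, 0.59 ± 0.24 at 24 h and 0.37 ± 0.23 at day 3. Its early average of 0.58 (95% interval 0.31 to 0.84) had an adjusted p of 0.00471 (edgeR) and missed the call only because 0.576 is below the fold limit. It was called without 11 of the 26 libraries, namely MCAO B and E and sham A and D at 3 h, MCAO A, B and E and sham A at 12 h, and MCAO A and B and sham A at 24 h. The values without these libraries were 0.58 to 0.68. The late average was 0.09 (95% interval -0.23 to 0.42), and the early effect exceeded it by 0.49 (95% interval 0.07 to 0.90, edgeR adjusted p = 0.196). Against control *Ddit3* had log2 fold changes of 0.82 ± 0.23 at 3 h and 0.81 ± 0.23 at 12 h, with adjusted p-values (edgeR) of 0.0918 and 0.0425.

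*Atf5* (ENSMUSG00000038539.14, chr7:44812256-44816658, - strand) encodes a relative of ATF4 that is translated under the same stress and is also tied to mitochondrial stress. It overlaps *Nup62* and *Il4i1* on the other strand. At 24 h the MCAO libraries held 26.3, 30.4, 34.7 and 45.2 CPM, all above the sham libraries at 18.4, 20.2, 18.9 and 13.6 CPM, as for 3.73% of all genes. At day 3 they held 22.4, 26.2, 60.4, 35.6 and 41.4 CPM against 27.6, 26.8, 13.6 and 10.8 CPM, and 3 of the 5 were above every sham library. Unlike *Atf4*, the group with the highest mean was MCAO at day 3, with 37.2 ± 14.99 CPM (SD, n = 5).

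*Atf5* had log2 fold changes against sham of 0.71 ± 0.38 at 12 h, 0.94 ± 0.40 at 24 h and 0.91 ± 0.37 at day 3. Its early average was 0.63 (95% interval 0.18 to 1.09) and its late average 0.58 (95% interval 0.04 to 1.13), with adjusted p-values (edgeR) of 0.0921 and 0.152. Against control it had 1.14 ± 0.39 at day 3 (adjusted p = 0.0660, edgeR). None of these was called.

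*Xbp1* (ENSMUSG00000020484.18, chr11:5520659-5525893, + strand) encodes the factor whose messenger RNA is spliced by IRE1. Reads near the 3′ end do not tell the spliced from the unspliced form. At 12 h the MCAO libraries held 22.2, 74.8, 79.3, 13.5 and 48.2 CPM and the sham libraries 18.4, 46.4, 79.1 and 58.4 CPM, so each group covered nearly the whole range of the gene. The early average against sham was 0.03 (95% interval -0.36 to 0.43) and the late average 0.23 (95% interval -0.25 to 0.71), and the intervals leave room for changes of either sign early on. The lowest mean was that of sham at day 7, with 36.2 ± 17.4 CPM (SD, n = 4), at -0.81 ± 0.36 against control (edgeR adjusted p = 0.593).

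Much of the spread of *Xbp1* was common to whole libraries. The first principal component of the deviations from the group means, over genes of at least 10 CPM, held 19.98% of all within-group variance and took 65.2% of that of *Xbp1*, 45.4% of *Ddit3*, 44.5% of *Atf5* and 39.5% of *Atf4*, against a median of 4.21% over all genes. It took 18.5% of both *Asns* and *Sesn2*, 2.73% of *Hspa5*, 1.76% of *Trib3*, 0.0382% of *Chac1* and 0.0122% of *Herpud1*. *Xbp1* and *Ddit3* deviated in opposite directions in 34 of 48 libraries. Sham library A and MCAO library D at 12 h stood at one end, with *Ddit3* at 110.0 and 133 CPM and *Xbp1* at 18.4 and 13.5 CPM, and sham library C at 12 h at the other, with 39.2 and 79.1 CPM. With this component as a covariate, added after the data had been seen, *Atf4* was called at 12 h against sham, *Ddit3* at 3 h and 12 h against control, and *Atf4*, *Ddit3* and *Sesn2* in the early average. The component was drawn from the deviations of these same libraries, in genes that include *Atf4* and *Ddit3*. Smaller errors for them are thus built in, and the added calls are no separate support. What sets the component was not tested.

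**Figure D2:**
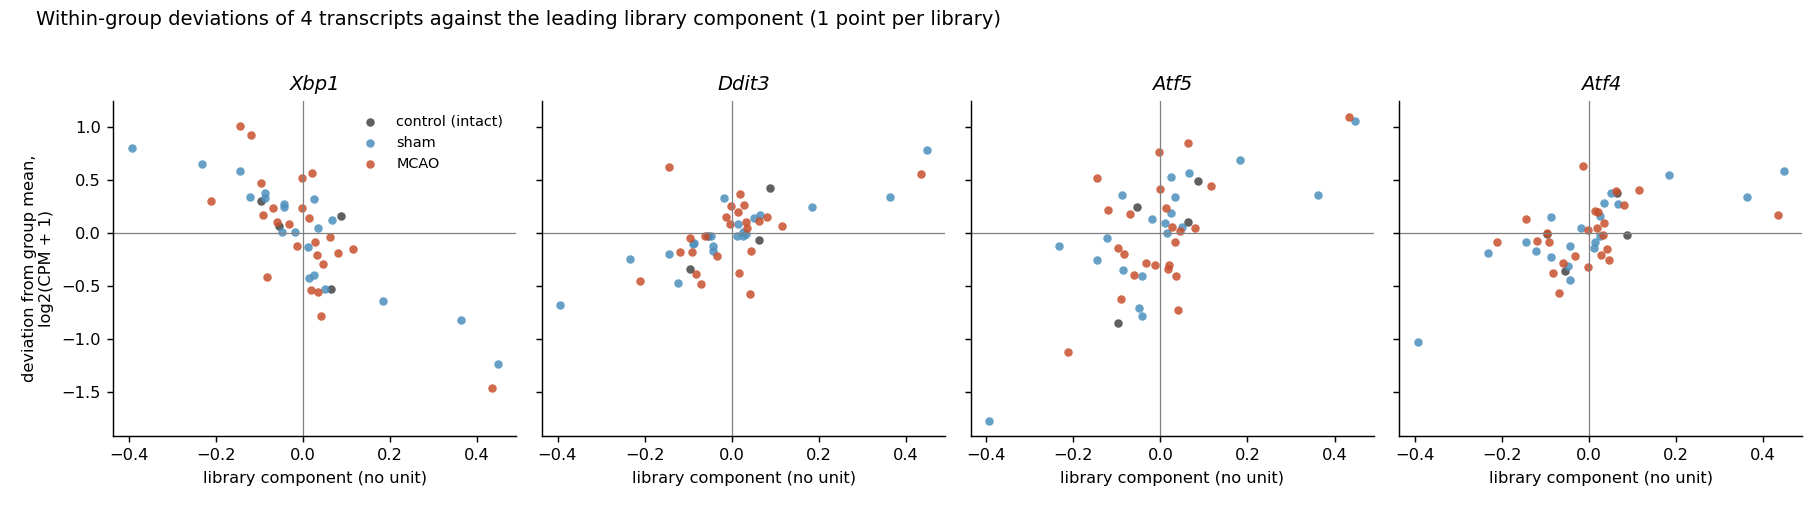
Deviation of log2(CPM + 1) from the group mean (vertical axis) against the leading library component (horizontal axis, no unit) for *Xbp1*, *Ddit3*, *Atf5* and *Atf4*, with 1 point per library coloured by condition. *Xbp1* falls along the axis where the other 3 transcripts rise, and the component takes 65.2% of its within-group variance.

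*Chac1* (ENSMUSG00000027313.3, chr2:119351229-119354381, + strand) encodes an enzyme that degrades glutathione and lies downstream of ATF4 and CHOP. At 12 h the MCAO libraries held 8.16, 10.7, 39.6, 15.3 and 4.76 CPM, which is 8 to 76 reads, and the sham libraries 6.70, 4.69, 10.7 and 9.35 CPM. Library C alone reached 39.6 CPM, and library E, with the most granulocyte markers, was the lowest. The log2 fold change against sham was 0.67 ± 0.42 at 3 h, 0.96 ± 0.42 at 12 h and 0.93 ± 0.46 at 24 h.

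On average it was 0.86 early (95% interval 0.36 to 1.36, edgeR adjusted p = 0.0288) and -0.50 late (95% interval -1.13 to 0.13). The difference of these averages was 1.36 (95% interval 0.55 to 2.16, edgeR adjusted p = 0.0384), the largest point estimate among the members and not called. Without sham library D at 3 h, the highest sham library at 16.9 CPM, the early average was 1.02 and called (adjusted p = 0.00933, edgeR). The MCAO group at day 7 had the lowest mean of all, 5.55 ± 2.29 CPM (SD, n = 5).

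*Asns* (ENSMUSG00000029752.12, chr6:7675169-7693254, - strand) encodes asparagine synthetase, a target of ATF4 under amino acid shortage. Its MCAO libraries lay mostly above the sham median in the first day (12 of 14) and mostly below it later (9 of 10). Against control, MCAO had log2 fold changes of -0.18 ± 0.18 at 3 h, 0.03 ± 0.18 at 12 h and 0.19 ± 0.185 at 24 h. They were -0.40 ± 0.18 at day 3 and -0.40 ± 0.18 at day 7. Sham stood at -0.48, -0.18 and -0.30 against control at 3 h, 12 h and 24 h. None of these was called, and MCAO showed no clear early rise over control. At 24 h the MCAO libraries held 84.1, 93.9, 89.8 and 56.8 CPM and the sham libraries 67.7, 60.7, 44.5 and 59.2 CPM. At day 3 the MCAO libraries held 70.5, 59.6, 41.4, 51.3 and 48.5 CPM and the sham libraries 70.4, 70.6, 64.0 and 87.1 CPM, so that 4 of 5 MCAO libraries were below every sham library.

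For *Asns* the log2 fold change was 0.49 ± 0.19 at 24 h and -0.43 ± 0.18 at day 3. The early average was 0.34 (95% interval 0.13 to 0.54, edgeR adjusted p = 0.0449) and the late average -0.35 (95% interval -0.60 to -0.10, edgeR adjusted p = 0.0537), neither of them called. Their difference of 0.68 (95% interval 0.35 to 1.01, edgeR adjusted p = 0.00926) was called, but it lay near the limit. It was not called with spike-in scaling (0.70, adjusted p = 0.0574, edgeR) or with the replicate letter as a block (0.68, adjusted p = 0.013, edgeR). The call was kept without 14 of the 44 libraries left out in turn (MCAO B at 3 h, MCAO A, C and D and sham C and D at 12 h, MCAO D and sham A at 24 h, MCAO A and B and sham C at day 3, MCAO B and D and sham D at day 7). Without any other single library the adjusted p was 0.0101 to 0.0253 and the difference 0.62 to 0.69. Sham at 3 h had the lowest mean, 51.1 ± 4.71 CPM (SD, n = 4), at -0.48 ± 0.19 against control (unadjusted p = 0.0133, edgeR adjusted p = 1).

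*Sesn2* (ENSMUSG00000028893.8, chr4:132492032-132510501, - strand) encodes sestrin 2, which restrains mTORC1 under stress. It shares its strand with the overlapping gene *Gm12981*. Its counts were low, from 3 to 74 reads per library. At 12 h the MCAO libraries held 5.19, 19.4, 38.6, 21.8 and 4.76 CPM against 12.3, 7.82, 1.11 and 3.12 CPM in sham, with libraries B, C and D above every sham library. At day 3 the 5 MCAO libraries held 14.9, 9.94, 19.5, 8.30 and 14.1 CPM and 4 of them were above every sham library, the highest of which held 9.07 CPM.

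*Sesn2* had log2 fold changes against sham of 1.37 ± 0.58 at 3 h, 1.62 ± 0.54 at 12 h and 0.41 ± 0.56 at 24 h. It had 1.33 ± 0.54 at day 3 and 0.002 ± 0.55 at day 7. Its early average was 1.13 (95% interval 0.48 to 1.78, edgeR adjusted p = 0.0257) and its late average 0.66 (95% interval -0.12 to 1.44). Without sham library A at 12 h the early average was 1.33 and called (adjusted p = 0.00932, edgeR). At 3 h, 12 h and day 3 the fold changes of this gene were larger than those of *Atf4*, but so were their errors. At 24 h its fold change was the smaller of the 2.

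*Trib3* (ENSMUSG00000032715.9, chr2:152337422-152344032, - strand) encodes a pseudokinase induced by ATF4 and CHOP. At 0 to 11 reads per library it is better read in sums. MCAO and sham groups held 16 and 7 reads at 3 h, 21 and 9 at 12 h, 18 and 3 at 24 h, 31 and 14 at day 3, and 17 and 6 at day 7. The ratio of MCAO to sham per count on genes was 1.76 at 3 h (exact 95% interval 0.687 to 5.07), 2.09 at 12 h (0.917 to 5.18), 4.90 at 24 h (1.43 to 25.9), 2.03 at day 3 (1.05 to 4.13) and 2.66 at day 7 (1.00 to 8.25). It was above 1 at every time, but these intervals cover counting error only. Between libraries *Trib3* did not pass the test at any time (edgeR adjusted p from 0.482 at day 7 to 0.904 at 3 h), nor in the early average (adjusted p = 0.204, edgeR).

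*Hspa5* (ENSMUSG00000026864.13, chr2:34771970-34777547, + strand) encodes BiP, the main chaperone of the ER, which also holds the stress sensors inactive. The 14 early MCAO libraries ran from 470 to 916 CPM with a median of 624 and the 12 sham libraries from 303 to 690 CPM with a median of 424. All 14 were above the sham median. At 12 h the MCAO libraries held 916, 619, 573, 629 and 760 CPM against 538, 474.5, 352 and 432 CPM. At 24 h they held 656, 572.5, 509 and 470 CPM against 416, 303, 314 and 386 CPM, so that the groups did not overlap at either time. Of all genes, 2.03% lay wholly above sham at 12 h and 3.73% at 24 h.

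The log2 fold change of *Hspa5* against sham was 0.30 ± 0.22 at 3 h, 0.64 ± 0.22 at 12 h and 0.64 ± 0.23 at 24 h, and 0.70 ± 0.22 against control at 12 h (adjusted p = 0.0705, edgeR). Its early average was 0.53 (95% interval 0.27 to 0.78). This had an adjusted p of 0.00731 (edgeR) but did not reach the fold limit. With single libraries left out it stayed below that limit, and the adjusted p reached 0.0188. The late average was 0.05 (95% interval -0.26 to 0.35) and the difference of the averages 0.48 (95% interval 0.08 to 0.87, edgeR adjusted p = 0.174). The 4 control libraries alone ran from 304 to 607 CPM.

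*Herpud1* (ENSMUSG00000031770.15, chr8:94386438-94395377, + strand) encodes an ER membrane protein that helps to clear misfolded protein. It overlaps *Gm15890* on the other strand. At 3 h the MCAO libraries held 76.0, 67.6, 97.7, 97.8 and 69.7 CPM and the sham libraries 83.0, 61.0, 52.0 and 52.9 CPM, with a log2 fold change of 0.39 ± 0.22. The early average was 0.14 (95% interval -0.12 to 0.40) and the late average 0.03 (95% interval -0.28 to 0.34). A mean change above 0.40 on the log2 scale is thus outside the early interval, which is narrower than those of *Chac1*, *Trib3* and *Sesn2*.

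**Figure D3:**
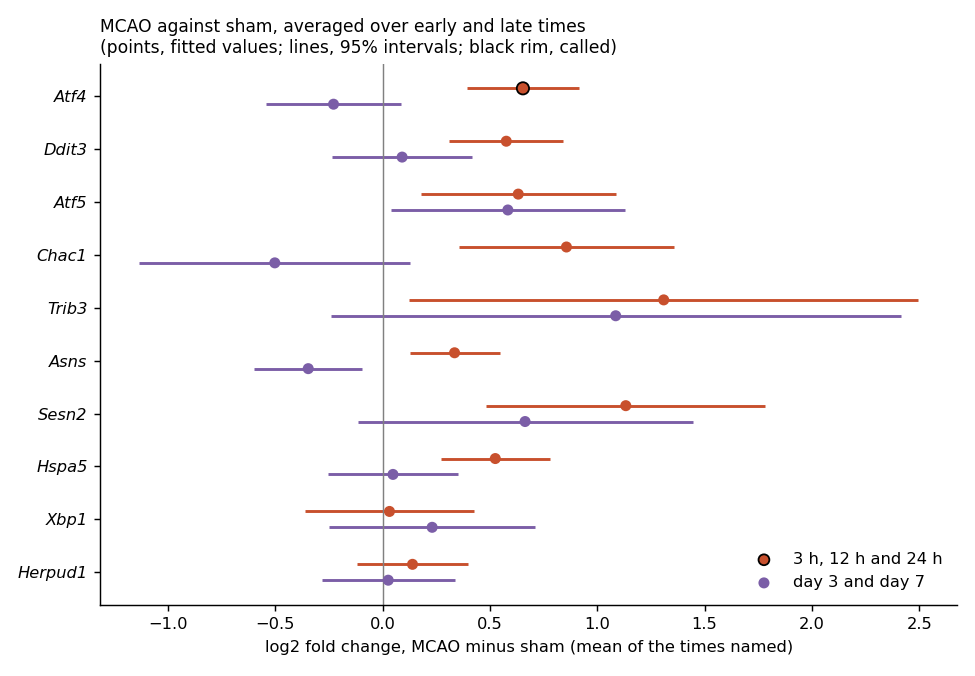
Fitted log2 fold change of MCAO minus sham (horizontal axis) for each transcript, averaged over 3 h, 12 h and 24 h and over day 3 and day 7, with 95% intervals as lines. Only the early value of *Atf4*, 0.65, was called (black rim), and the early intervals of 8 of 10 transcripts lie above 0. Of all genes, 19.2% had an early interval (edgeR) that excludes 0, in either direction.

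Ordered by mean level over the 11 groups, neighbouring groups were rarely apart. For each transcript the 11 means make 10 neighbouring pairs, and a gap larger than the larger SD of the pair was seen 1 time, for *Atf4* between MCAO at 24 h (238 ± 38.9 CPM, SD, n = 4) and control (177 ± 37.8 CPM, n = 4). The ratio of the highest to the lowest group mean was 1.39 for *Herpud1*, 1.59 for *Asns*, 1.97 for *Hspa5*, 2.09 for *Ddit3*, 2.11 for *Xbp1*, 2.12 for *Atf4*, 2.20 for *Atf5*, 2.83 for *Chac1*, 4.17 for *Sesn2* and 6.18 for *Trib3*. MCAO groups of the first day held the highest mean of 8 members, and MCAO at day 3 that of *Atf5* and *Trib3*. At day 7, 0 members lay wholly above sham, as 5.38% of all genes did.

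Genes whose level followed the members over the 48 libraries were sought among 13862 other genes of at least 2 CPM. The mean standardized log2(CPM + 1) of *Ddit3*, *Chac1*, *Trib3*, *Asns*, *Sesn2* and *Atf5* had high likeness to *Mthfd2* (Pearson's r = 0.796), *Rn7sk* (0.722), *Stk40* (0.717) and *Cdk11b* (0.713). That of *Hspa5*, *Xbp1* and *Herpud1* was most like *Kmt5a* (0.729), *Rgs16* (0.720), *Etv6* (0.687), *Dusp6* (0.676) and *Ski* (0.671). The points share depth, normalization and the differences between groups, so these values only rank the genes.

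Other genes of the pathway were grouped in 9 lists with 110 genes tested. The lists were also written with earlier results of these data known. Early on few of them were called, 1 at 3 h, 1 at 12 h and 0 at 24 h against sham, while 9 were called at day 3 and 3 at day 7, all higher after MCAO. In the averages 11 were called early and 17 late, again all higher. Of all genes, 4.02% were called at day 3, 3.5% at day 7, 1.49% early and 6.94% late, so the count at day 7 is near the background and more late than early calls are a property of all genes. Against control the lists held 2 genes higher and 2 lower at 12 h, 1 lower at 24 h, 8 higher and 1 lower at day 3, and 3 higher at day 7. The genes lower than control were *Slc38a2* (12 h, 24 h and day 3) and *Edem2* (12 h), both chosen after their values had been seen.

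The other stress transcription factors had the highest list median in both averages. Their median log2 fold change was 0.79 early and 0.98 late, against 0.02 and 0.04 for all genes, and 4 of 11 were called early (*Atf3*, *Cebpb*, *Cebpd* and *Jun*) and 5 late. *Cebpd*, a C/EBP factor of the acute phase, rose from 7.48 ± 4.47 CPM (SD, n = 4) in sham to 36.4 ± 21.9 CPM (n = 5) after MCAO at day 3 (log2 fold change 2.30 ± 0.51, edgeR adjusted p = 0.00178), a call lost without MCAO C or sham A or C (1.98 to 2.17, adjusted p up to 0.0181). *Nupr1*, a stress-induced nuclear protein, rose by 1.49 ± 0.39 on the log2 scale at day 3 (edgeR adjusted p = 0.00988), and *Jun*, of the AP-1 factor, by 1.45 ± 0.29 at day 7 (edgeR adjusted p = 0.000817). The call of *Nupr1* held without MCAO library A at day 3 but was lost without any of the other 8 libraries (1.32 to 1.61, adjusted p up to 0.0477) and with scaling to the spike-ins (1.23, adjusted p = 0.0427, edgeR), while that of *Jun* was kept in all 9 cases. *Atf3*, a repressor and activator induced by ATF4, held 0.521 ± 0.772 CPM in sham and 9.79 ± 4.07 CPM after MCAO at 3 h, where it did not pass the call, but it was called in the early average (edgeR adjusted p = 8.26e-06). It was chosen here after its values had been seen.

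The list of sensors and eIF2 kinases also held *Nfe2l2*, which encodes the antioxidant factor NRF2 and is itself neither a sensor nor a kinase. It was the 1 gene of 9 called at single times against sham, with 1.67 ± 0.31 at day 3 and 1.501 ± 0.32 at day 7 (edgeR adjusted p = 0.000191 and 0.00182). The latter was 1.07 without MCAO library C (adjusted p = 0.0271, edgeR) and then not called. *Eif2ak2*, the kinase PKR that senses double-stranded RNA, was called higher against control at 12 h, day 3 and day 7 (log2 fold changes 2.78, 3.87 and 3.48, edgeR adjusted p = 0.00715, 1.41e-05 and 0.000233) and was chosen after its values had been seen. In the late average against sham 2 of 9 were called, *Eif2ak2* and *Nfe2l2* (6.94% of all genes). In the list of feedback on eIF2 phosphorylation 0 of 9 were called at single times. Its most abundant genes, *Dnajc3* and *Eif2b4*, held 85.9 ± 9.55 and 69.3 ± 7.30 CPM after MCAO at 12 h, and 67.9 ± 7.16 and 64.6 ± 7.34 CPM in sham (SD, n = 5 and 4). *Ppp1r15a*, the phosphatase subunit GADD34 that ends eIF2 phosphorylation, was called in the early average, at 0.97 ± 0.23 (edgeR adjusted p = 0.00569), as a gene chosen after its values had been seen. That call was lost without any of 9 of the 26 libraries (MCAO C and sham B at 3 h, MCAO C and E and sham A and B at 12 h, MCAO D and sham B and C at 24 h), at 0.82 to 0.97 and adjusted p-values of 0.0105 to 0.0187, and with spike-in scaling (0.92, adjusted p = 0.0186, edgeR).

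Of 11 enzymes of amino acid and folate synthesis, 0 were called at single times. *Psat1* and *Gpt2*, the most abundant, held 57.5 ± 7.58 and 49.1 ± 8.06 CPM after MCAO at 12 h and 68.1 ± 6.402 and 60.7 ± 15.8 CPM in sham. At day 3 they held 85.3 ± 20.8 and 47.9 ± 13.7 CPM after MCAO and 60.8 ± 4.25 and 53.1 ± 8.83 CPM in sham. The list's median was -0.24 at 12 h, 0.03 in the early average and 0.38 in the late average. *Mthfd2*, a mitochondrial folate enzyme under ATF4, was called in the early average, at 1.26 ± 0.19 (edgeR adjusted p = 1.19e-05), and was also chosen after its values had been seen. Of 10 transporters, *Slc1a4*, a carrier of serine and alanine, was called at 12 h with 91.0 ± 17.3 CPM (n = 5) against 47.4 ± 8.92 CPM (n = 4), a log2 fold change of 0.95 ± 0.17 (edgeR adjusted p = 0.00151). Without sham library C it was 0.82 (adjusted p = 0.0251) and with spike-in scaling 0.83 (adjusted p = 0.0215, edgeR), in neither case called. *Slc38a2*, a carrier of neutral amino acids, had -0.74 ± 0.15 at 12 h, -0.84 ± 0.16 at 24 h and -0.66 ± 0.15 at day 3 against control (edgeR adjusted p = 0.00296, 0.00281 and 0.00314), and was not called against sham.

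Of 13 aminoacyl-tRNA synthetases, *Eprs*, which charges glutamate and proline, was called at 3 h, with 186 ± 22.5 CPM (n = 5) against 121 ± 6.96 CPM (n = 4) and a log2 fold change of 0.62 ± 0.13 (edgeR adjusted p = 0.00963). The call rests on all libraries, since it was lost without any one of them but MCAO D (0.55 to 0.67, adjusted p up to 0.0681) and with spike-in scaling (0.52, adjusted p = 0.129, edgeR). At 12 h 12 of the 13 had positive fold changes, with a median of 0.31 and 8 at an unadjusted p under 0.05 (14.6% of all genes). Positive values numbered 6 at 3 h (median -0.003), 10 at 24 h (0.22), 9 at day 3 (0.06) and 5 at day 7 (-0.15). In the early average 0 were called. Among 14 other targets of ATF4 or CHOP, *Tnfrsf10b*, a death receptor, was called at day 3, where it held 5.42 ± 4.74 CPM against 0.465 ± 0.537 CPM in sham. The list's median was 0.96 at 12 h and 0.34 to 0.49 at the other times. It was 0.44 in the early average and 0.52 in the late average. The same 3 genes were called in both averages, against 1.49% and 6.94% of all genes. For the difference of early and late effects 0 were called.

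For chaperones and folding enzymes of the ER the median was 0.05 in the early average, with 0 of 18 called (1.49% of all genes), and 0.33 in the late average, with 4 called (6.94% of all genes). The early-late difference itself was called for 1 of the 18, *Ppib*. At day 3 *P4hb*, *Pdia3* and *Calr* were called. *P4hb*, protein disulfide isomerase, held 127 ± 46.6 CPM (n = 5) against 57.9 ± 6.06 CPM (n = 4), a log2 fold change of 1.14 ± 0.25 (edgeR adjusted p = 0.00199), *Pdia3* had 0.86 ± 0.22 (edgeR adjusted p = 0.00663) and calreticulin (*Calr*) 0.59 ± 0.15 (edgeR adjusted p = 0.00663). The call of *P4hb* was lost without MCAO C or E or sham B (1.00 to 1.08, adjusted p up to 0.0141). Those of *Pdia3* (0.72 to 0.92) and *Calr* (0.53 to 0.61) were lost without MCAO C or E or any sham library, with adjusted p up to 0.0565 and 0.0353. With spike-in scaling 0 of the 3 were called, at 0.85 for *P4hb*, 0.59 for *Pdia3* and 0.33 for *Calr* (edgeR adjusted p = 0.0249, 0.0752 and 0.162). *Ppib*, a cyclophilin of the ER, was called in the late average (0.76 ± 0.16) and differed between early and late (edgeR adjusted p = 0.00119).

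In the list of ER-associated degradation and export 2 of 15 were called at day 3 (4.02% of all genes) and 1 at day 7 (3.5%), the latter near the background. *Edem1*, which hands misfolded glycoproteins to degradation, rose from 7.21 ± 0.974 CPM (n = 4) in sham to 35.5 ± 19.4 CPM (n = 5) at day 3 and from 3.19 ± 1.93 to 27.9 ± 27.1 CPM at day 7, log2 fold changes of 2.28 ± 0.47 and 3.10 ± 0.54 (edgeR adjusted p = 0.000793 and 0.000175). *Vcp*, the ATPase that extracts proteins from the ER, had 0.59 ± 0.15 at day 3 (edgeR adjusted p = 0.00903), a call kept only without MCAO A or sham B and otherwise lost (0.42 to 0.62, adjusted p up to 0.0974), as with spike-in scaling (0.33, adjusted p = 0.226, edgeR). The calls of *Edem1* were kept in all 9 cases at both times and with spike-in scaling. In the early average *Sec61a1*, of the translocation channel, was the 1 gene called of this list, at 0.78 ± 0.12. The rises at day 3 and day 7 came with higher sums of microglia, macrophage and fibroblast markers, and MCAO libraries C and E, without which *P4hb*, *Pdia3* and *Calr* were not called, had the highest fibroblast sums at day 3 (621 and 1305 CPM). The part of these cells was not tested.

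**Figure D4:**
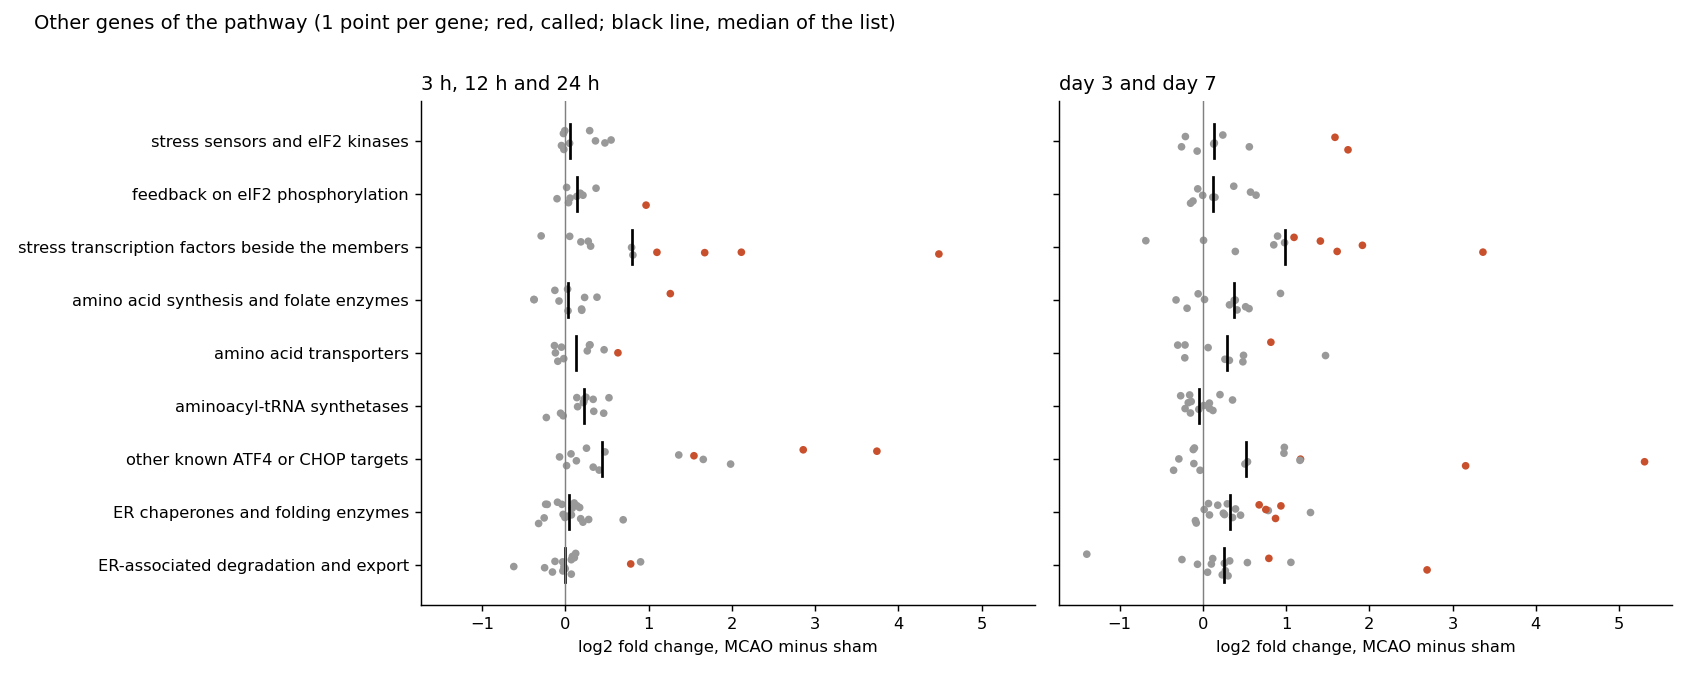
Log2 fold change of MCAO minus sham (horizontal axis) for each other gene of 9 pathway lists, averaged over 3 h, 12 h and 24 h (left) and over day 3 and day 7 (right). Points are genes, red those called, and the black line is the median of the list, which for ER chaperones lies at 0.05 early and 0.33 late.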

How the data were processed

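RNA from 48 brain samples was sequenced with a 3′-end kit (QuantSeq 3′ FWD, poly(A) RNA) after ERCC spike-ins had been added, in 11 groups taken from the labels. Per the study's methods, the authors trimmed reads with Trimmomatic, removed ribosomal reads with SortMeRNA, aligned them with STAR 2.5.2b to GRCm38 and counted them with htseq-count on Gencode. The deposited per-library counts are whole reads per gene, not normalized. Unassigned reads were left out, of which 21.1% to 30.7% per library fell on no feature, 0.343% to 0.475% were ambiguous and 24.0% to 37.3% were not unique. A deposited table of variance-stabilized log2 values was not used. Because reads lie near the 3′ end, CPM was not divided by transcript length, and levels are compared between groups only, not between genes.

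The 19970 genes whose counts summed to over 10 were fitted in 1 model over all 11 groups with TMM scaling and edgeR's quasi-likelihood test (edgeR 4.0.16, R 4.3.3), with Benjamini-Hochberg adjustment per comparison. The biological coefficient of variation was 24.9%. A call needed an adjusted p under 0.01 and a log2 fold change above 0.58 in size, the limits of the study. Averages over times, the library component (the first principal component of within-group deviations) and the motif core were chosen after the data were seen. The 10 genes, the pathway lists and the markers were chosen with earlier results of these data known. Members were described in full. From each list the genes called at single times against sham, at most 4, were named, or otherwise the 2 of highest mean CPM. Of the genes most like the members, 1 is not reported here. Tables and motif searches used Python 3.11.15. On simulated counts for MCAO against sham at 3 h (19633 genes) 42% of genes changed by 1 and 70% of those changed by 1.5 on the log2 scale were called. The changed genes, 100 of each size, came only from genes above a minimum mean level that *Trib3* does not reach. In the data 22 genes were called at 3 h, so these rates may be higher than those that apply to the members. Alternatives were DESeq2 (1.42.0) as a test and for size factors, spike-in scaling, other filters, a replicate block, fits of the compared groups alone, the library component as covariate, and each library left out in turn. All intervals of fitted values are 95% intervals. At 1522668 to 2826735 counts per library, few reads fell on *Trib3*, *Sesn2* and *Chac1*.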

Additional observations from a re-analysis of the deposited data

Results flagged for a closer look

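Among 110 groups of 4 or 5 libraries (10 transcripts in 11 groups), 2 held a library far from the rest by Dixon's test at 95%, where chance gives about 1 in 20. *Sesn2* stood at 9.13 CPM in control library D, against 4.52 to 5.06 CPM in the other controls. *Atf5* stood at 37.0 CPM in MCAO library E at day 7, while the rest of that group held 16.1 to 18.8 CPM.

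In a comparison chosen after values were seen, the effect of MCAO against sham differed between the first day and the later times for 2 transcripts, by a test of that difference. The early average exceeded the late one by 0.88 for *Atf4* and by 0.68 for *Asns*, on the log2 scale. The call was lost without any one of 16 of 44 libraries for *Atf4* and 30 of 44 for *Asns*, and for *Asns* also with spike-in scaling.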

How the results depend on the processing

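Of 592 values of printed fold changes under alternatives other than leaving out a library, 551 kept their direction and side of the threshold, and of 1195 with a library left out 1071 did. Spike-in scaling reversed 3 values near 0, the late averages of *Hspa5* (-0.054) and *Herpud1* (-0.061) and the early average of *Xbp1* (-0.012). With single libraries left out these ranged from -0.088 to 0.116, -0.047 to 0.111 and -0.060 to 0.129. The cause was not tested. With the library component, itself drawn from these libraries, as covariate 1 member was called at 12 h against sham, 1 at 3 h against control and 1 at 12 h against control, in place of 0, and 3 in the early average. That average gave 1 call in the fit described, 2 without a filter, 3 with DESeq2 (*Atf4*, *Ddit3* and *Sesn2*) and 0 to 3 with single libraries left out. The difference of early and late effects gave 2 calls, 1 with spike-in scaling (*Atf4*, while *Asns* had 0.70 with an edgeR adjusted p of 0.0574) and 0 to 2 with libraries left out.

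Of 20 pairs of MCAO and sham libraries with the same letter and time, 8 had a correlation of deviations over 0.1 (range -0.308 to 0.174). Pairs with different letters were not set beside them, so these values cannot decide whether the letters pair the libraries. With the replicate block, the early average gave 2 calls and the difference of averages 1 (*Atf4*, without *Asns*).

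Spike-in scaling shifted the median of all genes from 0.01 to -0.22 at day 3, and from 0.06 to 0.14 at day 7, against sham. It gave 463 genes higher and 131 lower at day 3, in place of 750 and 52, and 403 higher and 86 lower at day 7, in place of 413 and 285. Depth limits *Trib3* above all, at 0 to 11 reads per library.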
